A study of Homo sapiens with 4 samples.

Results

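The genes described here are the zinc finger transcription factors EGR1, EGR2 and EGR3 and their corepressors NAB1 and NAB2. They were taken by gene name from a count table, where they are 5 of 19901 protein-coding genes, and all 5 had enough counts to be tested. EGR1 rose after 8 h of dTAG treatment and was the only member that passed the test. For EGR3, NAB1 and NAB2 the lower dTAG library still exceeded the higher DMSO library, but they did not pass it, and the EGR2 libraries overlapped.

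EGR factors are immediate early gene (IEG) products: their genes are switched on within minutes of growth factor or serum stimulation, through serum response factor (SRF) and ternary complex factors (TCFs) that are activated by the MAP kinase ERK. The proteins bind GC-rich DNA through zinc fingers and activate or repress genes of growth, tissue repair and differentiation. NAB1 and NAB2 bind an inhibitory domain of EGR1, EGR2 and EGR3 and recruit the chromatin remodeler CHD4 of the NuRD complex, and NAB2 is itself induced by EGR factors in many cell types, which closes a negative feedback loop.

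The study asked whether acute loss of KAP1 (TRIM28), a chromatin and transcription regulator, changes nascent transcription in cells that were not stimulated. HCT116 is a colon carcinoma cell line, and every library came from 1 clone, D5, in which both KAP1 alleles carry a C-terminal FKBP12-based degron. A degrader ligand (dTAG) then directs the tagged protein to the proteasome. Both groups grew in DMEM with 7% FBS, and both were labeled for 10 min with 500 µM 4-thiouridine (4sU), which cells take up into RNA as it is made, so that new transcripts can be pulled down and sequenced (TT-Seq). DMSO, the vehicle, was given for 8 h to 2 libraries and dTAG for 8 h to the other 2. An untagged line with the ligand was not analysed here, so KAP1 loss and any other action of the ligand cannot be told apart.

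Counts on genes summed to between 93105627 and 102314741 per library, and 12612 genes had at least 50 counts in all 4 libraries and were tested. Of these, 895 were called at an adjusted p under 0.05, or 7.10%, with 3.44% higher and 3.66% lower with dTAG. Both dTAG libraries lay above both DMSO libraries in 28.1% of the tested genes and below them in 30.7%. ERCC spike-in RNAs made up between 0.0103% and 0.0265% of the gene counts. The log2 fold change fell with the GC content of the gene (Spearman rho = -0.56 over 12612 genes, which share the 4 libraries). TRIM28 RNA had a log2 fold change of -0.37 (adjusted p = 0.019, edgeR with Benjamini-Hochberg; 0.28 with ERCC totals as library sizes), which is no check of the treatment, since dTAG acts on the protein. TRIM28 was not called with the GC content and gene length trend removed (-0.10, adjusted p = 0.17), with the ERCC factor (-0.19, adjusted p = 0.13), with a replicate block or without either dTAG library. All 5 epithelial markers were tested, with a summed level of 1044 to 1147 CPM (counts relative to the TMM-scaled library size). The 5 markers of blood, fibroblasts and endothelium summed to 5.05 to 5.82 CPM, nearly all from COL1A1, and COL1A2 had 0 counts in every library.

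The sequences just upstream of the RefSeq start sites show the elements through which this family is known to be controlled. They are given for EGR1 and EGR2, whose promoters hold CArG boxes, the sites that SRF binds, and for the corepressors, which hold GC-rich sites of the kind EGR proteins bind. The promoter table (GRCh38.p14) held 4 of the 5 genes. Its windows run from 250 bases before to 50 bases after a start, and positions are counted from the start, with -1 for the base just before it. Capitals mark CArG boxes and the letters TGACGT or their complement ACGTCA, part of the cAMP response element, in the EGR1 and EGR2 sequences. EGR1 is shown from -250 to -1 (chr5:138465229-138465478, plus strand), directly upstream of its first exon. EGR2 is shown from -250 to -8 (chr10:62816374-62816616, minus strand), outside its annotated exons and inside the counted gene interval.
EGR1: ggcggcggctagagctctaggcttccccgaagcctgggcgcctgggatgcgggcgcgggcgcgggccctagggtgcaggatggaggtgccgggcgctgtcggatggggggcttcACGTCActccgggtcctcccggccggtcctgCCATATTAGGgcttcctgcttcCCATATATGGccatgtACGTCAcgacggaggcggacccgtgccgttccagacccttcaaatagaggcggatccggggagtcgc
EGR2: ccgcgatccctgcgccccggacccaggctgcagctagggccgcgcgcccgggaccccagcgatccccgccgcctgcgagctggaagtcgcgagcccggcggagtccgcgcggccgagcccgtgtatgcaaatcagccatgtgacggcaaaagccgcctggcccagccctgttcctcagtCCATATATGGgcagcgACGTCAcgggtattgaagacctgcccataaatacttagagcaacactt
In the corepressors, whose sites fall within or near first exons, 30 bases around 1 site are shown, with the site in capitals. NAB1 is at -186 to -157 (chr2:190648897-190648926, plus strand) and NAB2 at -73 to -44 (chr12:57089041-57089070, plus strand).
NAB1: cactcggccgcGCGTGGGCGggagccggag
NAB2: ctgtgcgtcctGCGGGGGCGgaggcgcgga

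EGR1 had 2 CArG boxes, at -105 to -96 and -83 to -74, and EGR2 had 1, at -71 to -62. CArG boxes were found in 1.29% of 35116 promoter windows, and 2 or more of them in 11 windows (0.0313%). EGR1 also held 2 matches to TGACGT and EGR2 held 1, against 7.98% of windows with any. The ETS core GGAAG, the base of TCF sites, matched 3 times in EGR1 and once in EGR2, but it was in 71.9% of windows. The EGR letters GCGTGGGCG were in the NAB1 window (0.795% of windows), which also held 2 overlapping matches to GCGGGGGCG. That second form matched once in the NAB2 window and occurred in 5.07% of all windows. Neither EGR form matched in the EGR1 and EGR2 windows, and no CArG box in those of NAB1 and NAB2. All motifs were searched on both strands. A match describes the letters only: binding was not measured here.

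EGR1 (ENSG00000120738.7) encodes the most widely studied EGR activator. It was counted over 3.83 kb (chr5:138465490-138469315, plus strand), and no other annotated gene overlaps it. Its level was 26.0 and 21.0 CPM in the DMSO libraries and 80.9 and 46.1 CPM in the dTAG libraries, from 2572, 2095, 8102 and 4160 counts. Both dTAG libraries lay above both DMSO libraries, and dTAG replicate 1 stood well above replicate 2. The mean went from 23.5 ± 3.51 to 63.5 ± 24.6 CPM (SD, n = 2 libraries each). The log2 fold change was 1.44 ± 0.16 (SE), a 2.71-fold rise with a 95% interval of 2.13 to 3.43, at an adjusted p of 1.9e-05 (edgeR quasi-likelihood test, Benjamini-Hochberg adjustment over the 12612 genes). Among the tested genes this was rank 2 by log2 fold change. The 2 libraries of a group are called biological replicates in the study's methods. The standard errors, intervals and p-values rest on the spread between replicates, estimated in part over all tested genes. The EGR1 interval is therefore not set by the spread of its own libraries alone. DESeq2 gave EGR1 a log2 fold change of 1.45 ± 0.42 (SE, DESeq2 adjusted p = 0.013).

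The distance between the dTAG libraries was itself large for EGR1. It was 0.81 on the log2 scale, and only 19 tested genes (0.151%) had a larger one. EGR3 was among those 19, as was FOS, whose log2 fold change was -0.21 (edgeR adjusted p = 0.57). Of the 19, 11 were higher in dTAG replicate 1. Without dTAG replicate 1 the log2 fold change of EGR1 was 0.98, and without replicate 2 it was 1.78; the call held in both fits. It was lost with ERCC totals as library sizes, where the value was 1.99 at an adjusted p of 0.47 and the median of all genes moved to 0.63. Over the alternatives that kept all 4 libraries, the adjusted p of EGR1 ranged from 6.3e-55 (edgeR with the ERCC factor) to 0.47.

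**Figure D1:**
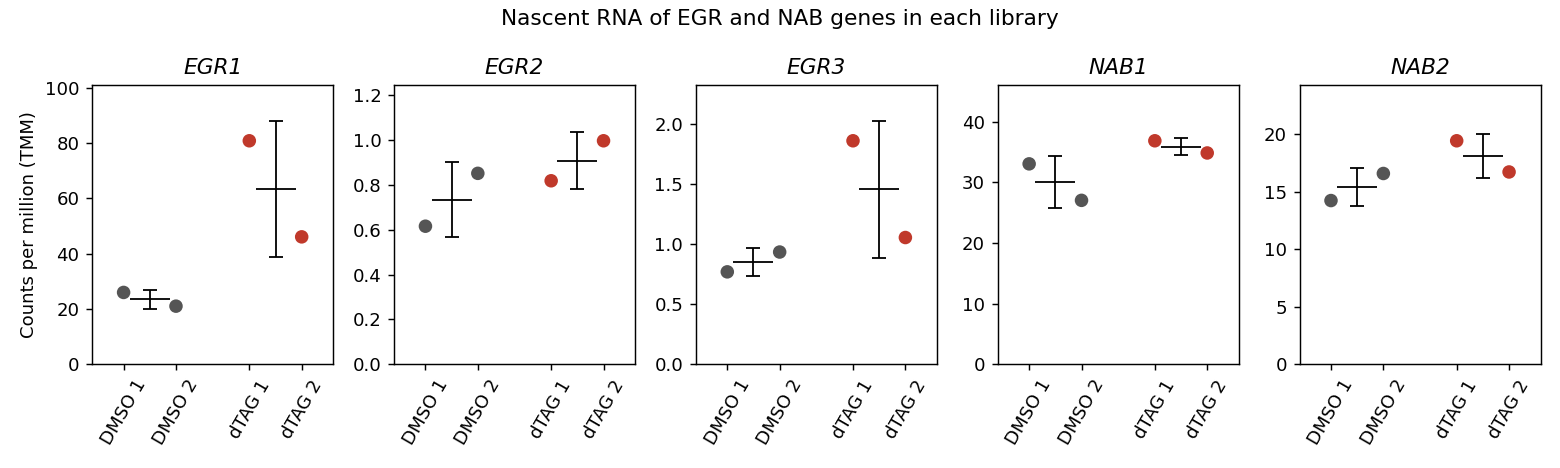
Level of the 5 genes in each library, in TMM-scaled CPM on linear axes that start at 0 and differ between panels. Points are libraries (grey DMSO, red dTAG) and bars the mean ± SD of 2. EGR1 and EGR3 show the widest gap between the dTAG libraries, and the groups overlap only for EGR2.

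EGR3 (ENSG00000179388.8), an EGR factor known from muscle spindles and lymphocytes, was far less transcribed. It lies on chromosome 8 (chr8:22687659-22693302, minus strand), was counted over 5.64 kb, and an annotated lncRNA runs across it on the opposite strand. Its counts were 76 and 93 with DMSO and 186 and 95 with dTAG, or 0.767, 0.932, 1.86 and 1.05 CPM. The groups did not overlap, but dTAG replicate 2 was only just above DMSO replicate 2. As for EGR1, the higher library was dTAG replicate 1. The log2 fold change was 0.78 ± 0.28 (95% interval 0.19 to 1.37), with an unadjusted p of 0.012 and an adjusted p of 0.090 in the edgeR quasi-likelihood test. The 95% Poisson intervals of the counts of dTAG replicate 2 (76.9 to 116) and DMSO replicate 2 (75.1 to 114) overlapped nearly in full, which covers counting error only. Without dTAG replicate 1 the value was 0.31. Over the alternatives that kept all 4 libraries, the edgeR adjusted p ranged from 0.0040 to 0.47.

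EGR2 (ENSG00000122877.15), the factor of hindbrain segments and myelinating Schwann cells, was just above the minimum of 50 counts. Its 61 and 85 counts with DMSO and 82 and 90 counts with dTAG equal 0.616, 0.852, 0.819 and 0.997 CPM. The groups overlapped. The log2 fold change of 0.30 ± 0.28 had a 95% interval of -0.28 to 0.89, and no difference was detectable at this depth (edgeR adjusted p = 0.50). The counted interval (chr10:62811996-62919900, minus strand) spans 108 kb, whereas GENCODE 44 gives the gene 7.17 kb, with the same transcript end, and lists an lncRNA on the same strand within the larger span. Part of its counts may therefore come from outside EGR2, and that share was not tested.

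The nearest zinc finger relatives were lower still. EGR4 had 10 and 26 counts with DMSO and 27 and 6 with dTAG, and WT1 had between 0 and 5, so neither reached the minimum of 50 counts.

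NAB2 (ENSG00000166886.12), the corepressor known as an EGR target, was at 14.2 and 16.6 CPM with DMSO and 19.4 and 16.7 CPM with dTAG. Both dTAG libraries were higher, but dTAG replicate 2 exceeded DMSO replicate 2 by little. The log2 fold change was 0.23 ± 0.12 (95% interval -0.029 to 0.49, edgeR adjusted p = 0.24). NAB2 was counted over 6.58 kb (chr12:57088894-57095476, plus strand), and its last 69 bases overlap STAT6, a signal-dependent transcription factor gene on the opposite strand. STAT6 itself had a log2 fold change of -0.25 (adjusted p = 0.19), with both dTAG libraries below both DMSO libraries.

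NAB1 (ENSG00000138386.16), its paralog, had 33.1 and 27.0 CPM with DMSO and 36.9 and 34.9 CPM with dTAG. The groups did not overlap, with DMSO replicate 1 closest to the dTAG values. Its log2 fold change of 0.26 ± 0.11 (95% interval 0.034 to 0.48) had an unadjusted p of 0.026 and an edgeR adjusted p of 0.13. NAB1 was counted over 46.0 kb (chr2:190646746-190692766, plus strand), across which 2 annotated lncRNAs run on the opposite strand. The strand setting of the counting was not given in the sources used here, so reads of such partners cannot be told apart from those of the members.

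Thus all 5 log2 fold changes were above 0, against 47.7% of tested genes, and their median was 0.30, against -0.015 over all tested genes. Of the 5, 4 had groups that did not overlap (28.1% of tested genes in that direction) and 3 had an unadjusted p under 0.05 (26.6% of tested genes). Only EGR1 was called.

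EGR1, EGR3 and NAB2 are short GC-rich genes, with GC contents of 56.6%, 55.7% and 60.2%, and genes of like composition were lower with dTAG. The median log2 fold change of the tested genes within 1 percentage point of GC content was -0.19 for EGR1 (601 genes), -0.19 for EGR3 (653 genes) and -0.25 for NAB2 (344 genes). For NAB1, at 37.7% GC, the same median was 0.13 (1281 genes), and for EGR2, at 42.6%, it was 0.052 (1330 genes). So the distance of NAB1 to genes of its composition was smaller than its fold change, and that of NAB2 larger. With the GC content and gene length trend removed from every library, EGR1 was at 1.65. EGR3 was at 1.00 (edgeR adjusted p = 0.019) and NAB2 at 0.51 (edgeR adjusted p = 7.7e-04). All 3 were called in that fit, which called 2287 of the 12612 tested genes, against 895 in the main fit. The same step left NAB1 at 0.12, not called. Over the alternatives that kept all 4 libraries, the edgeR adjusted p of NAB2 ranged from 2.8e-05 to 0.47 and that of NAB1 from 0.10 to 0.73.

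**Figure D2:**
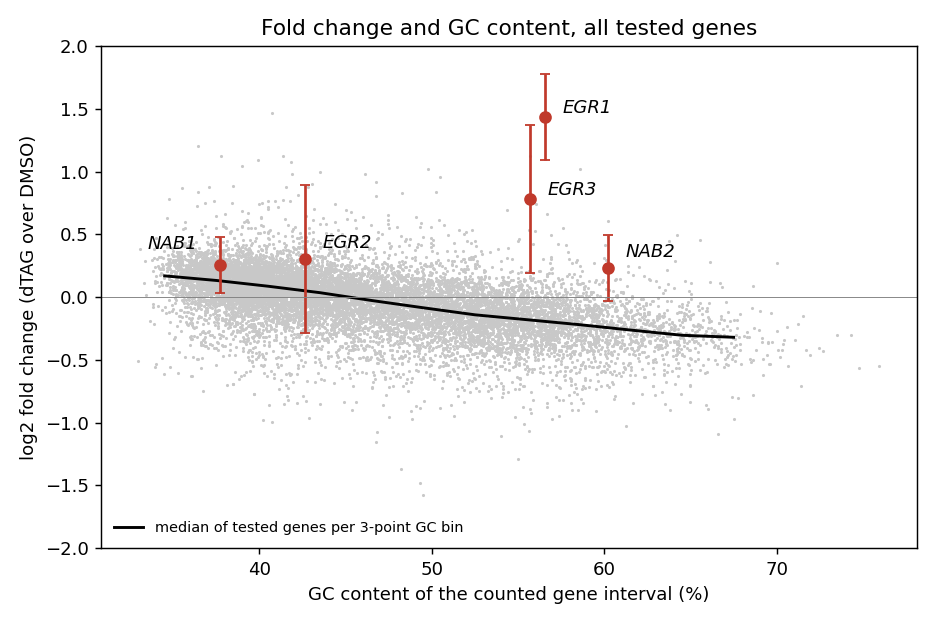
Log2 fold change (dTAG over DMSO) against GC content in percent for the 12612 tested genes (grey) and the 5 genes (red, with 95% intervals). The black line is the median per bin of 3 percentage points; EGR1, EGR3 and NAB2 sit above it where it is below 0, and NAB1 and EGR2 have intervals that reach it.

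**Figure D3:**
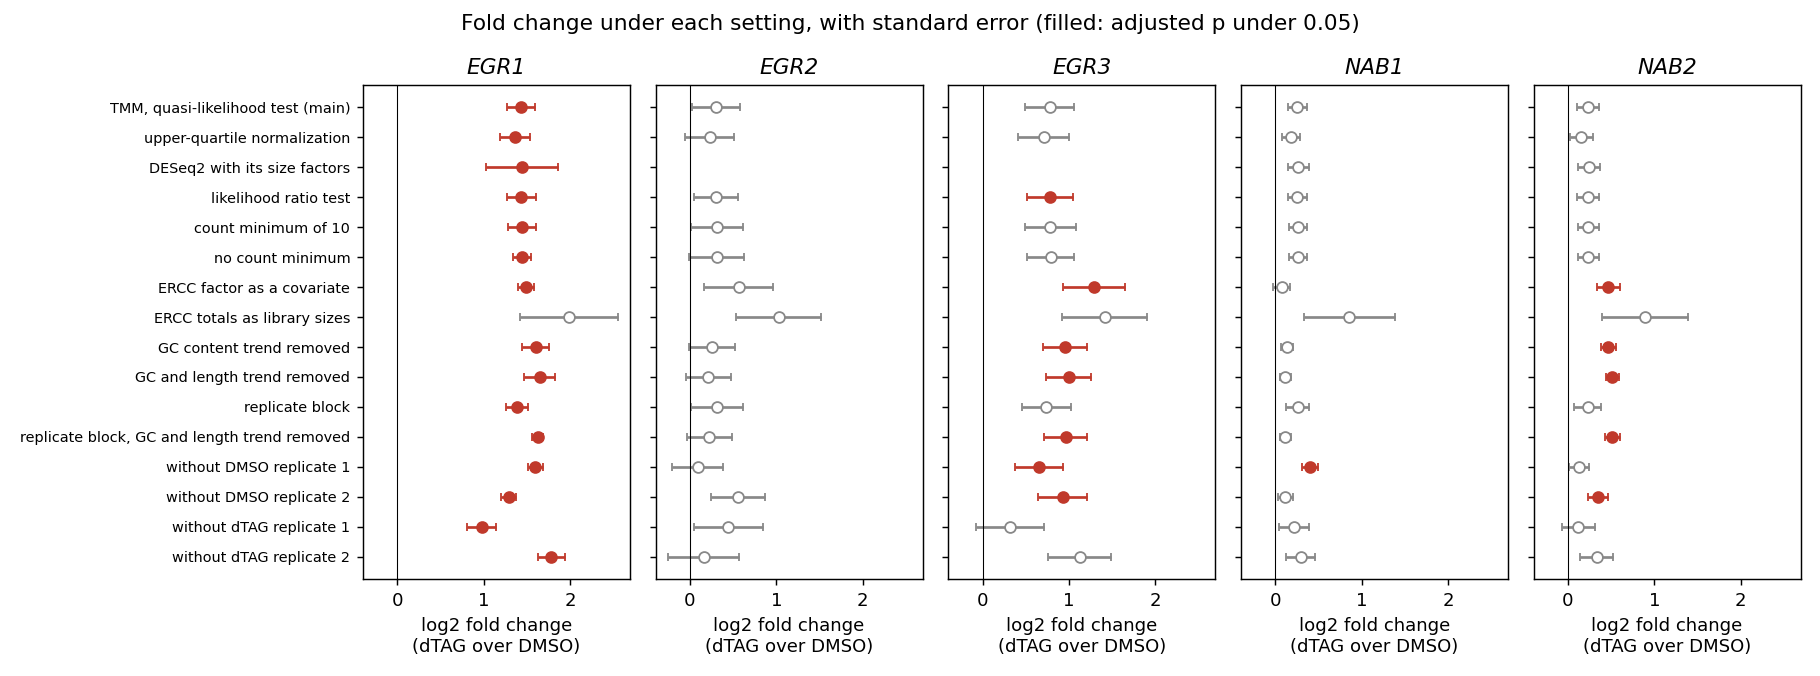
Log2 fold change with standard error under each processing setting, filled where the adjusted p is under 0.05. EGR1 is called in all settings but the ERCC totals, EGR2 in none, and EGR3 and NAB2 change with the setting; DESeq2 gave no adjusted p for EGR2 and EGR3, which are left blank.

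Levels can be compared between the genes only per length. In the DMSO libraries EGR1 stood at 6.14 ± 0.919 CPM per kb of counted interval, higher than 92.8% of tested genes, whose median was 1.06. NAB2 followed at 2.34 ± 0.253 and NAB1 at 0.653 ± 0.0926. EGR3, at 0.151 ± 0.0207, was above 14.1% of tested genes. EGR2, at 0.00680 ± 0.00155, was above 1.13% of them, and the same counts over the GENCODE 44 length would give 0.102, an upper limit, since reads were not recounted over that interval. The order EGR1, NAB2, NAB1, EGR3, EGR2 held in all 4 libraries with the lengths of either annotation. No neighbours in this order overlapped in the DMSO libraries, where EGR1 had 6.79 and 5.49 CPM per kb and NAB2 had 2.16 and 2.52. NAB1 had 0.718 and 0.587, and EGR3 had 0.136 and 0.165. With GENCODE 44 lengths, EGR3 had 0.132 and 0.160, against upper limits of 0.0859 and 0.119 for EGR2.

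The new RNA of activator and corepressor genes was compared as a ratio of counts within a library, which does not depend on library scaling. Protein was not measured in these libraries. EGR1 to NAB2 was 1.83 and 1.27 with DMSO and 4.17 and 2.76 with dTAG. All dTAG ratios were above all DMSO ratios, by 1.16 on the log2 scale with a pooled SD of 0.40. EGR1 to NAB1 went from 0.786 and 0.777 to 2.19 and 1.32, a log2 difference of 1.12. EGR1 counts were thus below NAB1 counts in both DMSO libraries and above them in both dTAG libraries. That crossing depends on the counted lengths, 3.83 kb for EGR1 and 46.0 kb for NAB1. Per kb, EGR1 was above NAB1 in every library, with 6.79 and 5.49 against 0.718 and 0.587 CPM with DMSO. An exact permutation test of 2 against 2 libraries cannot go below p = 0.333, and the ratios were not tested.

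EGR1 was higher relative to EGR3 as well in both dTAG libraries. The ratio of their counts was 33.8 and 22.5 with DMSO and 43.6 and 43.8 with dTAG, and although each gene differed between the dTAG libraries by more than 0.8 on the log2 scale, their ratio was nearly equal there. EGR3 to NAB2 had a log2 difference of 0.49 with a pooled SD of 0.30. For EGR2 to NAB2 (0.089) and NAB2 to NAB1 (-0.032) the groups overlapped. NAB2 to STAT6, the pair that shares 69 bases, went from 0.825 and 0.838 to 1.22 and 1.09, a log2 difference of 0.47 with a pooled SD of 0.081.

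**Figure D4:**
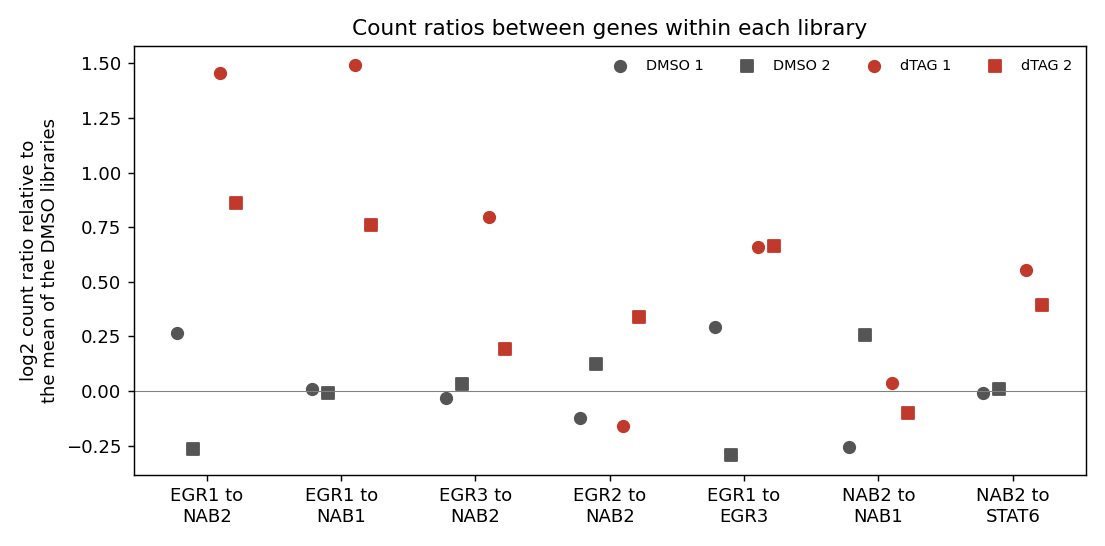
Log2 ratio of the counts of 2 genes within each library, set against the DMSO mean (grey DMSO, red dTAG; circles replicate 1, squares replicate 2). The red points lie above the grey points for EGR1 to NAB2, NAB1 and EGR3, for EGR3 to NAB2 and for NAB2 to STAT6, and mix with them for EGR2 to NAB2 and NAB2 to NAB1.

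Genes beside the members were read in the same fit. REEP2, 18.5 kb to the left of EGR1, had a log2 fold change of -0.55 (adjusted p = 0.11), and ETF1, the translation release factor gene 36.8 kb to its right, had 0.28 (adjusted p = 0.061). Both values were below the 95% interval of EGR1 (1.09 to 1.78). Beside EGR3, BIN3 was at 0.15 and PEBP4 at 0.031, and beside EGR2, ADO was at -0.033 and NRBF2 at -0.21, none of them called. NEMP2, to the left of NAB1, had 0.42 (edgeR adjusted p = 0.056). On either side of NAB2, NEMP1 was at 0.11 and LRP1, a lipoprotein receptor gene 33.0 kb to the right, fell by 0.60 on the log2 scale (edgeR adjusted p = 0.0074; 0.086 with ERCC totals).

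Genes with profiles like those of the EGR genes were sought by the Euclidean distance of centred log2 levels over the 4 libraries. No tested gene lay within a distance of 0.2 of EGR1 or of EGR3. The nearest to EGR1 was the keratin gene KRT86 (distance 0.60), and F3 (0.62), the tissue factor that starts blood clotting, was among the nearest 3. Their log2 fold changes were 1.02 and 0.99, below that of EGR1. KRT86 overlaps KRT81 and KRT7, so its counts are uncertain. Nearest to EGR3 were the AP-1 subunit gene FOSB (0.28), the ERK phosphatase gene DUSP5 (0.31) and ANO2 (0.36). FOSB and DUSP5 had the same shape as EGR3, with dTAG replicate 1 highest: FOSB was at 5.67, 6.15, 10.5 and 6.79 CPM in the order DMSO 1, DMSO 2, dTAG 1, dTAG 2, and DUSP5 at 365, 354, 668 and 452 CPM. FOSB overlaps ERCC1. For EGR2, 27 genes lay within a distance of 0.2, led by KCNAB1 (0.057), ZNF585B (0.063) and ADM2 (0.099), none of which was called.

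Genes known as EGR targets changed in both directions. Of 30 listed genes, 22 were tested, 3 rose, 2 fell and 17 did not pass. The median log2 fold change was -0.12, against -0.015 over all tested genes, and 22.7% of the tested targets were called, against 7.10% of all tested genes. With the GC content and gene length trend removed, the median was -0.013, against -0.0015 over all tested genes. In that fit 5 targets were called higher and 3 lower, among 2287 genes called. The largest rise was that of F3, from 80.7 and 79.5 to 171 and 148 CPM (log2 fold change 0.99 ± 0.089, edgeR adjusted p = 1.2e-06). ATF3, a stress-induced bZIP factor gene, rose from 102 and 117 to 182 and 174 CPM (0.70 ± 0.090). THBS1, the matrix protein thrombospondin, had 17.1 and 15.8 CPM with DMSO and 23.3 and 21.0 with dTAG (0.43 ± 0.11), and it overlaps FSIP1. THBS1 was not called with upper-quartile normalization (0.36, edgeR adjusted p = 0.063), with a replicate block (0.43, edgeR adjusted p = 0.098) or with ERCC totals. CDKN1A, the cell cycle inhibitor p21, fell from 204 and 244 to 140 and 126 CPM (-0.75 ± 0.097; -0.084 with ERCC totals, not called). GDF15, a secreted stress factor, fell from 152 and 177 to 133 and 123 CPM (-0.36 ± 0.092; 0.30 with ERCC totals).

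Among the 22 tested targets, both dTAG libraries lay above both DMSO libraries in 5 and below them in 10, against 28.1% and 30.7% of all tested genes. Both counts were made with the GC content trend left in. Among the targets not called, the growth factor gene PDGFB had a log2 fold change of 0.27 (edgeR adjusted p = 0.15), and PDGFA had -0.11, TGFB1 -0.11 and VEGFA 0.055. The lipoxygenase gene ALOX5 had -0.71 and narrowly missed the threshold (adjusted p = 0.051). The 8 targets not tested include IGF2, FASLG and IL2, which had 0 counts in all 4 libraries.

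Of the NuRD genes, through which NAB proteins act, all 13 were tested and 1 fell. MTA2, a histone deacetylase scaffold gene, went from 54.6 and 60.2 to 46.5 and 43.7 CPM (log2 fold change -0.35 ± 0.090, edgeR adjusted p = 0.025; 0.31 with ERCC totals). CHD4, which NAB2 binds, had -0.15, and CHD3 had -0.23, neither of them called. HDAC1 (-0.12) and HDAC2 (0.029) were also not called. The median of the 13 was -0.047, and the share called was 7.69%, near the 7.10% of all tested genes.

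Among 22 genes of the route from RAS through ERK to SRF, all tested, 3 rose and 1 fell. The median was 0.066, against -0.015 over all tested genes, and 18.2% were called, against 7.10%. It was 0.021 with the GC content and gene length trend removed and -0.034 with the ERCC factor (all tested genes -0.0015 and -0.0062). Like the other lists, this one was chosen with earlier results of these data known. ELK3, a TCF, went from 114 and 116 to 152 and 145 CPM (0.37 ± 0.083, edgeR adjusted p = 0.011). The kinase genes RPS6KA5, whose product MSK1 phosphorylates CREB and histone H3, and RPS6KA3, or RSK2, rose by 0.39 ± 0.094 and 0.37 ± 0.095 on the log2 scale. RPS6KA5 overlaps DGLUCY. RPS6KA1, or RSK1, fell from 53.0 and 68.8 to 49.0 and 45.1 CPM (-0.37 ± 0.11; 0.32 with ERCC totals). RPS6KA3 and RPS6KA5 have low GC contents, 37.7% and 38.8%, and RPS6KA1 has 53.5%. With the GC content and gene length trend removed they were at 0.21 (adjusted p = 0.0057), 0.26 (adjusted p = 0.0047) and -0.24 (adjusted p = 0.022), nearer to 0 but called. With the ERCC factor they were at 0.13, 0.17 and -0.037 (edgeR adjusted p = 0.27, 0.083 and 0.85). None of them was called in that fit or with a replicate block. SRF itself had 0.15 (adjusted p = 0.36), ELK1 0.085 and MAPK3, or ERK1, -0.30, none of them called.

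**Figure D5:**
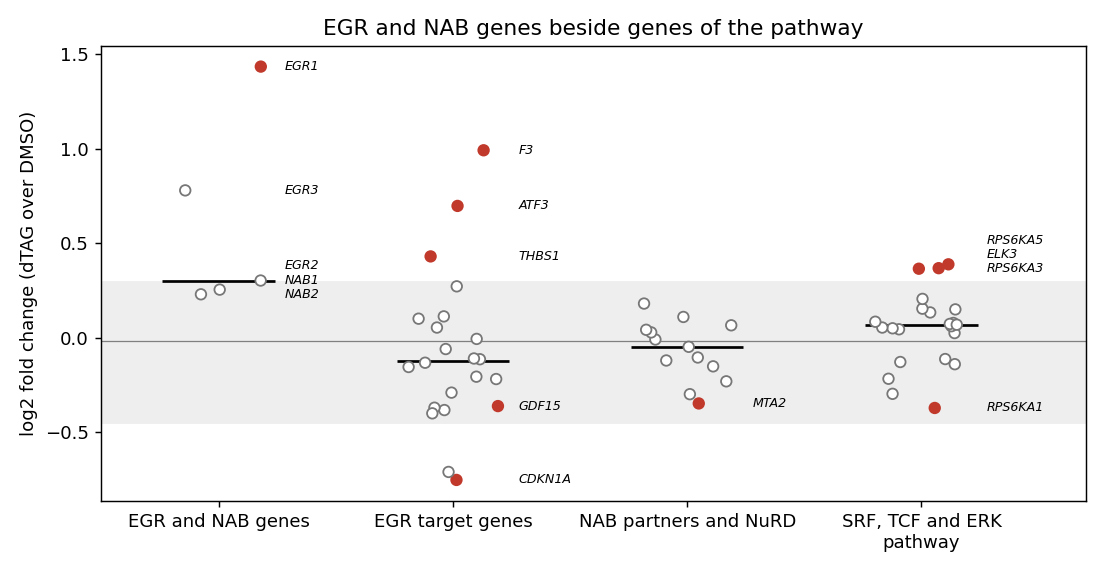
Log2 fold change of each tested gene of the 4 groups, filled red where the adjusted p is under 0.05, with black bars for the group medians. The grey band holds the tested genes from the 5th to the 95th percentile (-0.45 to 0.30) and the line their median; EGR1 lies highest, followed by F3 among the targets.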

How the data were processed

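Per the labels and the study's methods, reads were trimmed with Trim Galore 0.6.4, mapped to hg38 with STAR and counted with featureCounts (Subread 1.6.3) over whole protein-coding genes and ERCC RNAs. The authors deposited raw counts, as whole numbers and without normalization. How strand and overlapping genes were treated was not given in the sources used here. File starts count from 0, and coordinates are printed from 1.

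Counts were fitted in R 4.3.3 with edgeR 4.0.16 (TMM, quasi-likelihood F test, two-sided, no block) over the 12612 genes that reached 50 counts in each of the 4 libraries, with Benjamini-Hochberg adjustment and calls at 0.05. Standard errors equal the absolute log2 fold change over the root of the F statistic. The study's spike-in settings are not stated in full, so TMM was the main scaling. DESeq2 1.42.0, spike-in settings (14 ERCC RNAs), other count minimums, a replicate block, removal of the GC content and gene length trend (lowess, span 0.3) and leaving out each library were alternatives. The fitting code was run on simulated counts with the same spread for every gene and no GC content or length trend. That run does not test the fits under the trend or the wide library gaps seen here. Gene counts carried 93105627 to 102314741 reads per library; genes under 100 counts, such as EGR2, are limited by counting error, the others mainly by the 2 replicates.

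The members and gene lists were chosen with earlier results of these data known. Named genes are the members, EGR4, WT1, TRIM28, overlapping and nearest genes, up to 6 called genes per list, and the 3 nearest profiles of each EGR gene; other list genes, and FOS, were chosen after their values were seen. A few genes that this rule names are not reported here. GC content was computed over the counted intervals in hg38, annotation came from GENCODE 44, and promoter windows from RefSeq. Same-numbered libraries did not deviate together (r = -0.24 across genes).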

Additional observations from a re-analysis of the deposited data

How the results depend on the processing

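EGR1 stayed called in 14 of 15 alternatives, and all 5 members stayed above 0 in every alternative run. Leaving out 1 library gave log2 fold changes of 0.98 to 1.78 for EGR1, 0.088 to 0.55 for EGR2, 0.31 to 1.13 for EGR3, 0.12 to 0.41 for NAB1 and 0.12 to 0.34 for NAB2; the lone sample is then assumed to vary like the other group. EGR3 was called without either DMSO library (0.65 without replicate 1, 0.93 without replicate 2), NAB1 without DMSO replicate 1 (0.41) and NAB2 without DMSO replicate 2 (0.34). EGR3 and NAB2 were called with the ERCC factor (1.29 and 0.47), with the GC content and gene length trend removed (1.00 and 0.51) and with GC content alone removed (0.95 and 0.47), the last chosen after seeing the data. EGR3 was also called with the likelihood ratio test (0.78). DESeq2 gave EGR3 0.79 with an unadjusted p of 0.032 and no adjusted p. With ERCC totals as library sizes, edgeR called 0 genes (229 at an unadjusted p under 0.05), EGR1 was at 1.99, the DMSO levels per kb were 5.15 for EGR1, 0.120 for EGR3, 0.547 for NAB1 and 1.87 for NAB2, and these genes changed sign: TRIM28 0.28, GDF15 0.30, MTA2 0.31, RPS6KA1 0.32, STAT6 0.42, LRP1 0.086 and REEP2 0.10. In that setting the median of all tested genes was 0.63, against -0.015 in the main fit, so the genes shifted up together. A value above 0 there is thus no separate result for the members. Why the ERCC totals differ between the libraries was not tested.

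Calls over all genes were 895; they were 1593 with the likelihood ratio test, 1417 with no count minimum, 2287 with the GC content and gene length trend removed, 2460 with GC content alone removed, 5491 without DMSO replicate 1, 1499 without DMSO replicate 2, 138 without dTAG replicate 1 and 69 without dTAG replicate 2. Upper-quartile normalization gave 255 higher and 869 lower, DESeq2 691 higher and 582 lower, and the ERCC factor 796 higher and 526 lower. The fit with no count minimum tested 17450 genes, and the other counts are out of 12612 tested genes. The SRF, TCF and ERK count fell without DMSO replicate 2, where the calls over all genes rose. Apart from that fit, and the ERCC factor for this list and for NuRD, the list counts below rose and fell with these calls. They are therefore no separate result about the lists. EGR target calls (5) went to 0 with ERCC totals, 8 with the trends removed, 12 without DMSO replicate 1, 8 without DMSO replicate 2 and 3 without either dTAG library. NuRD calls (1) went to 0 with ERCC totals or the ERCC factor, 2 with the trends removed, 6 without DMSO replicate 1 and 0 without either dTAG library. SRF, TCF and ERK calls (4) went to 0 with ERCC totals, 2 with the ERCC factor, 13 without DMSO replicate 1 and 0 without either dTAG library.

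With a replicate block, 340 genes were called, 3 of them EGR targets, 0 NuRD and 0 SRF, TCF and ERK genes; EGR1 stayed called. The block with the GC content and gene length trend removed called 2634 genes, 8 of the targets, 2 of the NuRD genes, EGR3 (0.96) and NAB2 (0.51). The numbers give no shared origin, so this pairing has no basis in the labels, and with the numbers crossed 3190 genes were called.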
